A study of Mus musculus with 15 samples.

Results

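Early photoreceptor genes, 10 in number, were followed through 15 bulk RNA-Seq libraries of mouse optic tissue, chosen by their gene symbol (Crx, Prdm1, Neurod1, Nrl, Nr2e3, Thrb, Rxrg, Opn1sw, Gngt2 and Rcvrn). All 10 members were present among the 23244 entries of the expression table. The tissue was grown by SFEBq, a culture of self-organizing aggregates, from a single mouse ES cell line that carries a GFP reporter at the Rx (Rax) locus, and the GFP-positive epithelium was cut out by hand at Day 10. The 5 groups held 3 libraries each. Day 10 Rx::GFP+ tissue was the starting material. Day 12 +Fgf and Day 15 +Fgf explants were kept in retinal maturation medium with 5 ng/ml bFgf and 10% fetal bovine serum. Day 12 +Wnt and Day 15 +Wnt explants were kept in retinal maturation medium with the GSK3 inhibitor CHIR99201, at 3 uM for the first 24 h and at 1 uM afterwards. Serum was in the +Fgf medium alone, so bFgf and serum cannot be told apart, and no Day 12 or Day 15 group without stimulation was analysed here. The study describes the Day 15 tissues as mostly, but not wholly, neural retina-like (+Fgf) or pigment epithelium-like (+Wnt).

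Rods and cones arise from dividing retinal progenitors that leave the cell cycle and switch on Otx2, which in turn is needed for Crx, the homeobox factor that drives most photoreceptor genes. Prdm1 (Blimp1), a transcriptional repressor, holds newborn photoreceptors away from the bipolar fate, while Nrl and its target Nr2e3 set the rod fate. Thrb and Rxrg, nuclear receptors for thyroid hormone and 9-cis retinoic acid, belong to the cone program. Opsins, transducins and other parts of the light response come on later, and Opn1sw, Gngt2 and Rcvrn are genes of that machinery.

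The libraries held between 12556998 and 16175450 counted reads, and 1 read was worth between 0.062 and 0.0764 CPM, the library-scaled expression unit of the deposited table. Replicate libraries correlated at r = 0.988 to 0.9952 across genes. In the table of tests, a gene was included if it reached 1 CPM in at least 3 libraries, which 13845 genes did. Differences are log2 differences of CPM + 0.3 from limma, with Benjamini-Hochberg adjusted p-values over all genes tested and a threshold of 0.05. Of the 10 members, 7 passed this filter, and Prdm1, Nrl and Gngt2 did so through the Day 15 libraries, Nrl and Gngt2 through Day 15 +Fgf alone. Rcvrn, Nr2e3 and Opn1sw did not pass and were not tested. Counts over members that passed are therefore descriptions and not support for a direction. The same holds for the other gene lists below, where a gene can pass through only the group in which it is high.

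Between Day 12 and Day 15 of Fgf stimulation, all 7 members tested rose, by 0.68 to 6.22 on the log2 scale, while 27.2% of all genes tested rose and 29.9% fell in that comparison. At Day 15 the same 7 genes were higher in +Fgf than in +Wnt tissue, by 0.83 to 5.18, beside 38.0% higher and 30.6% lower of all genes tested. Prdm1 and Crx, both transcription factor genes, had the largest log2 difference in these comparisons, and Gngt2 the next. The median difference over the 7 members was 2.66 between days and 2.68 between treatments, beside medians over all genes tested of -0.02 and 0.05. In this bulk tissue, fewer cells of a type and less RNA per cell cannot be told apart.

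**Figure D1:**
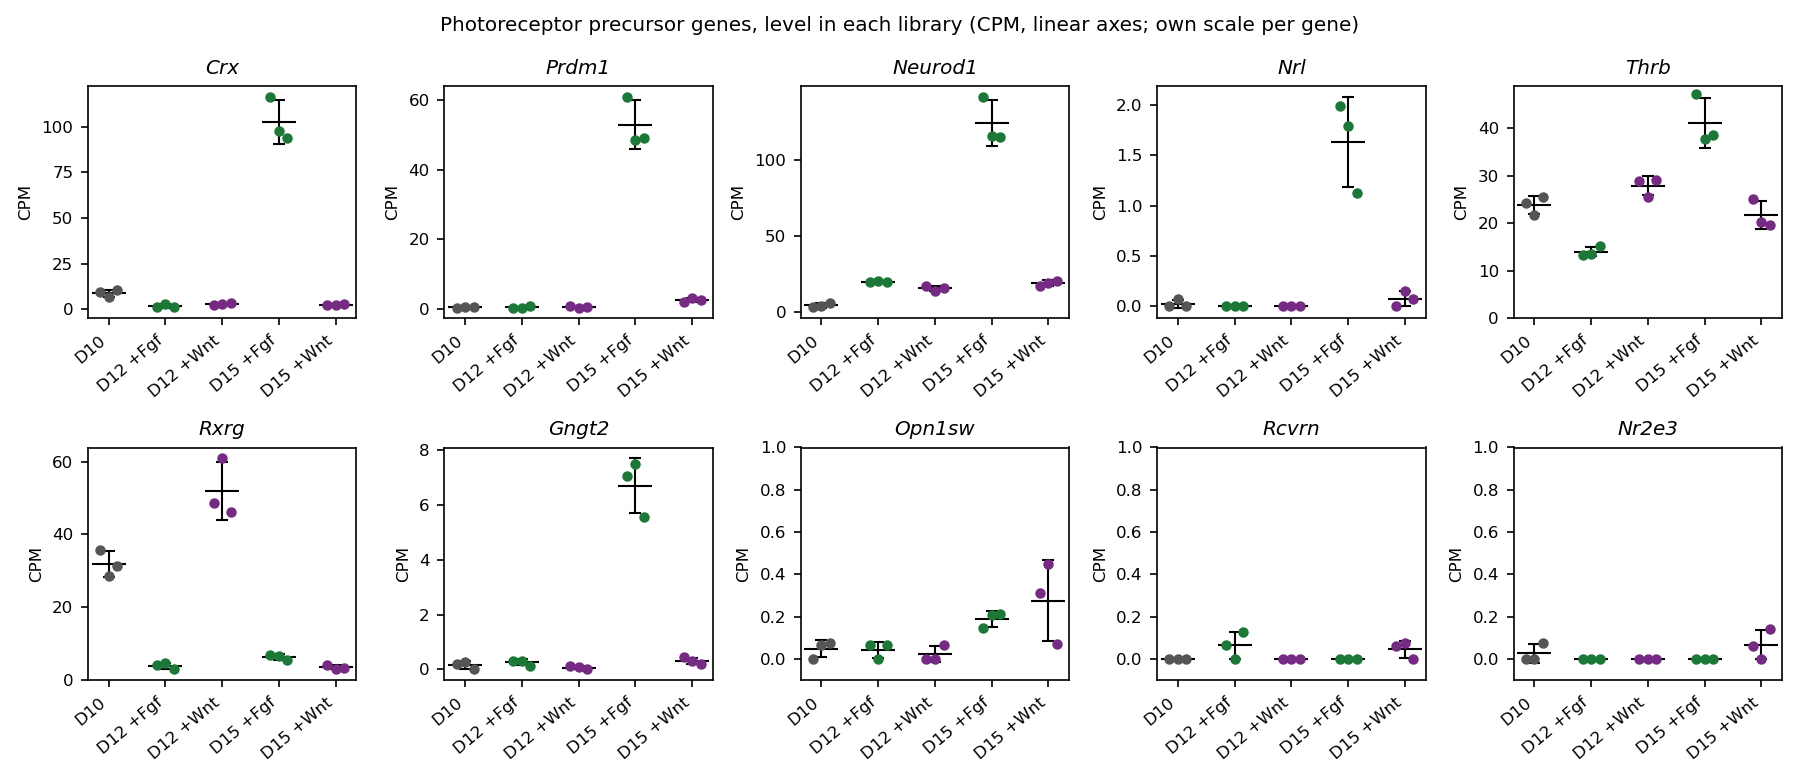
Level of each of the 10 members in every library, in CPM on linear axes with a separate scale per gene. Points are libraries of Day 10 (grey), +Fgf (green) and +Wnt (purple) tissue, D10, D12 and D15 stand for Day 10, Day 12 and Day 15, and bars show mean and SD of 3 libraries. Crx, Prdm1, Neurod1, Nrl, Thrb and Gngt2 were highest in the 3 Day 15 +Fgf libraries, whereas Rxrg was highest in the 3 Day 12 +Wnt libraries, at 46.2 to 61.0 CPM.

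Crx (chromosome 7, 15865947 to 15879968, minus strand, mm10) was present from the start. Its level at Day 10 was 9.4, 6.75 and 10.3 CPM in replicates 1 to 3, and at Day 12 it was 1.14, 2.99 and 1.34 CPM in +Fgf and 2.26, 3.13 and 3.24 CPM in +Wnt tissue. At Day 15 it stood at 116.4, 97.7 and 93.8 CPM in +Fgf and at 2.54, 2.31 and 2.74 CPM in +Wnt tissue. All Day 12 libraries lay under all Day 10 libraries, and the 3 Day 15 +Fgf libraries lay far above the other 12. Crx fell from Day 10 to Day 12 in both arms, by 2.18 in +Fgf (SE 0.24, adjusted p = 1.5e-06) and by 1.51 in +Wnt (SE 0.24, adjusted p = 5.44e-05). From Day 12 to Day 15 it rose 56.2-fold in mean CPM in +Fgf tissue (log2 difference 5.69, SE 0.24, adjusted p = 2.44e-11). In +Wnt tissue the log2 difference over the same days was -0.16 (95% confidence interval -0.67 to 0.36, adjusted p = 0.589), and under quantile normalization it was -0.85 (adjusted p = 0.00278). At Day 15 the mean was 40.6-fold higher in +Fgf than in +Wnt tissue (log2 difference 5.18, SE 0.24, adjusted p = 1.17e-11).

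The DNA before the Crx start site is shown because Crx was the member with the largest difference between the Day 15 tissues. That before a Prdm1 start site is shown because Prdm1 had the largest rise between Day 12 and Day 15 +Fgf. Both come from RefSeq promoter windows on build GRCm38.p6 (8 of the 10 members have such windows), are written 5′ to 3′ on the gene's strand, and end at or just before the start site. Capitals mark GGATTA, the reverse complement of TAATCC, the core that Crx and Otx2 proteins are known to bind. For Crx, the last 13 bases before the RefSeq start lie in an annotated exon and are left off. The Prdm1 stretch lies inside the annotated span of the gene (44437177 to 44528501), before an internal start. The DNA before its outermost start was not searched.
Crx, chr7:15879969-15880205, minus strand: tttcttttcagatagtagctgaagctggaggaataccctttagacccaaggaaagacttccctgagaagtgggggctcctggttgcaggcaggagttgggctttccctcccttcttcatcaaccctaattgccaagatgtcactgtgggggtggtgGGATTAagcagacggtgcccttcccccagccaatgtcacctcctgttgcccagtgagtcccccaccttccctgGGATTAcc
Prdm1, chr10:44458749-44458998, minus strand: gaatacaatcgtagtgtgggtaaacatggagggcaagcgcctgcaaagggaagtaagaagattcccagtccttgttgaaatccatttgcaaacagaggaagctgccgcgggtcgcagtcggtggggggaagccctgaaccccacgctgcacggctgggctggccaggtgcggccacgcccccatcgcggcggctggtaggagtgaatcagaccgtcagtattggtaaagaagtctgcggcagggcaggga
The Crx stretch held GGATTA at 2 places, whose first bases lie 94 and 21 bases before the start. Of 32851 RefSeq windows of 250 bases, 6.25% held TAATCC on either strand and 0.295% held it at least 2 times. The Prdm1 stretch held neither TAATCC nor the other 2 motifs searched, CAGATG (an E-box, the kind of site bound by Neurod1, in 14.4% of windows) and TAATTA (a homeodomain core, in 4.84%), on either strand. Over the 10 windows of the 8 members, TAATCC was in 2 (1 each of Crx and Thrb), CAGATG in 1 (Nrl, 19 bases before the start) and TAATTA in 0. These are matches of letters and carry no measurement of binding.

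Prdm1 (chromosome 10, 44437177 to 44528501, minus strand) was close to silent until Day 15. It stood at 0.273, 0.468 and 0.382 CPM at Day 10, and between 0.278 and 0.639 CPM in the 6 Day 12 libraries, where no library had more than 10 reads. At Day 15 it reached 61.0, 48.6 and 49.1 CPM in +Fgf and 1.80, 3.06 and 2.46 CPM in +Wnt tissue. Every Day 15 library was above every earlier library, and the +Fgf and +Wnt ranges at Day 15 did not overlap. The rise from Day 12 to Day 15 was 125-fold in +Fgf tissue (log2 difference 6.22, SE 0.24, adjusted p = 1.01e-11) and 5.09-fold in +Wnt tissue (1.81, SE 0.24, adjusted p = 4.16e-06, and 1.15 under quantile normalization). Prdm1 thus rose in both arms, and the Day 15 mean was 21.7-fold higher in +Fgf tissue (4.30, SE 0.24, adjusted p = 1.02e-10).

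Neurod1 (chromosome 2, 79452521 to 79456751, minus strand), a basic helix-loop-helix factor used by photoreceptors, amacrine cells and other neurons, rose in steps. Its levels were 3.2, 3.94 and 6.19 CPM at Day 10, 19.5, 20.5 and 19.9 CPM in Day 12 +Fgf and 17.0, 13.9 and 15.8 CPM in Day 12 +Wnt tissue. At Day 15 they were 141.4, 115.3 and 115.0 CPM in +Fgf and 17.1, 19.3 and 20.7 CPM in +Wnt tissue. Neurod1 was the only 1 of the 7 tested members that rose from Day 10 to Day 12 in both arms (2.14 in +Fgf, SE 0.16, adjusted p = 2.04e-08, and 1.79 in +Wnt, SE 0.16, adjusted p = 1.11e-07). It rose a further 6.22-fold by Day 15 in +Fgf tissue (2.61, SE 0.16, adjusted p = 1.35e-09), whereas in +Wnt tissue the log2 difference was 0.29 (95% confidence interval -0.06 to 0.63, adjusted p = 0.13). That difference passed the threshold in the edgeR count test (0.34, adjusted p = 0.0354) and with only the libraries compared in the fit (0.29, adjusted p = 0.0323). At Day 15 the mean was 6.51-fold higher in +Fgf tissue (2.68, SE 0.16, adjusted p = 2.90e-10). In the GENCODE annotation, 201 of the 2729 exon bases of Neurod1 are shared with an exon of Cerkl on the same strand and 154 with Gm26755 on the other, and how reads there were assigned is not known.

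The rod factor Nrl (chromosome 14, 55518978 to 55524981, minus strand) was detected at a low level in Day 15 +Fgf tissue. It had 27, 26 and 16 reads there, which is 1.99, 1.79 and 1.13 CPM. The Day 12 libraries had 0 reads, 1 Day 10 library had 1 read, and the Day 15 +Wnt libraries had 0, 2 and 1 reads. The ranges of Day 15 +Fgf and of each other group did not overlap. Against 3 reads per library as the floor for Day 12 +Fgf, the Day 15 +Fgf mean was at least 8.57-fold higher, and the fitted log2 difference was 2.66 (SE 0.27, adjusted p = 4.32e-07). Against Day 15 +Wnt the ratio was 22.4 (counting interval 7.78 to 118, from 69 and 3 reads) and the fitted log2 difference 2.37 (SE 0.27, adjusted p = 8.64e-07). For a gene this low the fitted size follows the pseudocount, and with 0.05 and 1 CPM in place of 0.3 CPM this difference was 3.95 and 1.28.

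Nr2e3 (chromosome 9, 59942771 to 59960659, minus strand), the nuclear receptor that acts downstream of Nrl in rods, was not detected where Nrl was. It had 0 reads in all 3 Day 15 +Fgf libraries and in all 6 Day 12 libraries, 1 read in 1 Day 10 library, and 1, 0 and 2 reads in Day 15 +Wnt tissue. A count of 0 allows up to 3 reads, or 0.206 to 0.221 CPM in the Day 15 +Fgf libraries.

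The nuclear receptor gene Thrb (chromosome 14, 17660261 to 18038090, plus strand) was present in all groups and its changes were modest. It stood at 24.3, 21.8 and 25.4 CPM at Day 10, at 13.3, 13.6 and 15.1 CPM in Day 12 +Fgf and at 28.9, 25.5 and 29.1 CPM in Day 12 +Wnt tissue. At Day 15 it stood at 47.1, 37.6 and 38.5 CPM in +Fgf and at 25.0, 20.2 and 19.7 CPM in +Wnt tissue. The 2 arms crossed between the days, since the +Fgf libraries lay below all +Wnt libraries at Day 12 and above them at Day 15. Thrb fell by 0.75 from Day 10 to Day 12 +Fgf (SE 0.11, adjusted p = 1.70e-05) and then rose by 1.53 to Day 15 (SE 0.11, adjusted p = 4.77e-09). In +Wnt tissue the first step was 0.22 (95% confidence interval 0.00 to 0.45, adjusted p = 0.0805), and it fell by 0.36 in the second (SE 0.11, adjusted p = 0.00584). At Day 15 it was 1.90-fold higher in +Fgf than in +Wnt tissue (0.92, SE 0.11, adjusted p = 8.42e-07). The counts are per gene, so its isoforms, of which 1 is specific to cones, could not be separated.

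Rxrg (chromosome 1, 167598384 to 167639623, plus strand) had the pattern least like the other members. It stood at 35.7, 28.5 and 31.3 CPM at Day 10, at 4.06, 4.59 and 2.87 CPM in Day 12 +Fgf and at 48.7, 61.0 and 46.2 CPM in Day 12 +Wnt tissue. At Day 15 it stood at 6.86, 6.59 and 5.30 CPM in +Fgf and at 3.97, 2.91 and 3.3 CPM in +Wnt tissue. The Day 10 and Day 12 +Wnt libraries lay above all others, and both Day 15 groups lay below Day 10. Rxrg fell 8.29-fold by Day 12 under +Fgf (log2 difference -2.97, SE 0.16, adjusted p = 6.38e-10) and rose 1.63-fold under +Wnt (0.70, SE 0.16, adjusted p = 0.00167). From Day 12 to Day 15 it fell 15.3-fold in +Wnt tissue (-3.82, SE 0.16, adjusted p = 1.09e-11) and rose 1.63-fold in +Fgf tissue (0.68, SE 0.16, adjusted p = 0.00219). The Day 15 level in +Fgf tissue was 1.84-fold that in +Wnt tissue (0.83, SE 0.16, adjusted p = 0.000284) but 5.09-fold lower than at Day 10 (-2.30, SE 0.16, adjusted p = 2.04e-09). In the study's library list no other library has a lower RNA integrity number than the Day 15 +Fgf libraries, though a Day 10 library ties with the highest of them. With that number as a covariate, the Rxrg rise from Day 12 to Day 15 +Fgf was 0.35 (adjusted p = 0.481) and the Day 15 difference between treatments 0.53 (adjusted p = 0.168), while the calls for the other 6 members in these 2 comparisons were kept.

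Of the 3 members that belong to the light response, Gngt2 alone passed the filter and was tested. Gngt2 (chromosome 11, 95837216 to 95845734, plus strand), the gamma subunit of cone transducin, had 96, 109 and 79 reads in Day 15 +Fgf tissue (7.08, 7.49 and 5.58 CPM) and at most 7 reads in any other library. It rose 26.4-fold from Day 12 to Day 15 +Fgf (counting interval 14.9 to 51.7, log2 difference 3.67, SE 0.28, adjusted p = 1.68e-08) and was 21.4-fold higher there than in Day 15 +Wnt tissue (3.52, SE 0.28, adjusted p = 1.09e-08). In +Wnt tissue it went from 2, 1 and 0 reads at Day 12 to 7, 4 and 3 reads at Day 15 (0.75, SE 0.28, adjusted p = 0.0274). That last call was lost without any 1 of Day 12 +Wnt replicates 2 and 3 and Day 15 +Wnt replicates 1 and 2 (0.61 to 0.77, adjusted p = 0.0512 to 0.104), with a pseudocount of 1 CPM (0.30, adjusted p = 0.0769) and under quantile normalization (0.28, adjusted p = 0.425). In the annotation, 234 of the 1877 exon bases of Gngt2 overlap Abi3 on the opposite strand. Whether counting used strand is not given in the sources used here, so reads from the 2 genes in this overlap cannot be told apart.

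Opn1sw (chromosome 6, 29376671 to 29388468, minus strand), the short-wave cone opsin, had 2, 3 and 3 reads in Day 15 +Fgf tissue and 5, 6 and 1 reads in Day 15 +Wnt tissue, with 0 or 1 read in each earlier library. The ratio of Day 15 +Fgf to Day 15 +Wnt was 0.683 (counting interval 0.244 to 1.83), and 397 of its 2557 exon bases overlap Calu on the opposite strand. From Day 12 to Day 15 +Wnt its ratio was 12.5 (counting interval 1.85 to 534, from 12 reads against 1), and from Day 12 to Day 15 +Fgf it was 4.44 (0.891 to 43.1, from 8 against 2). Rcvrn (chromosome 11, 67695326 to 67703333, plus strand), which encodes the calcium sensor recoverin, had 0 reads in the Day 10, Day 12 +Wnt and Day 15 +Fgf libraries and at most 2 reads elsewhere. Opsin and recoverin transcripts were thus at or near the floor of 3 reads per library in all 5 groups.

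**Figure D2:**
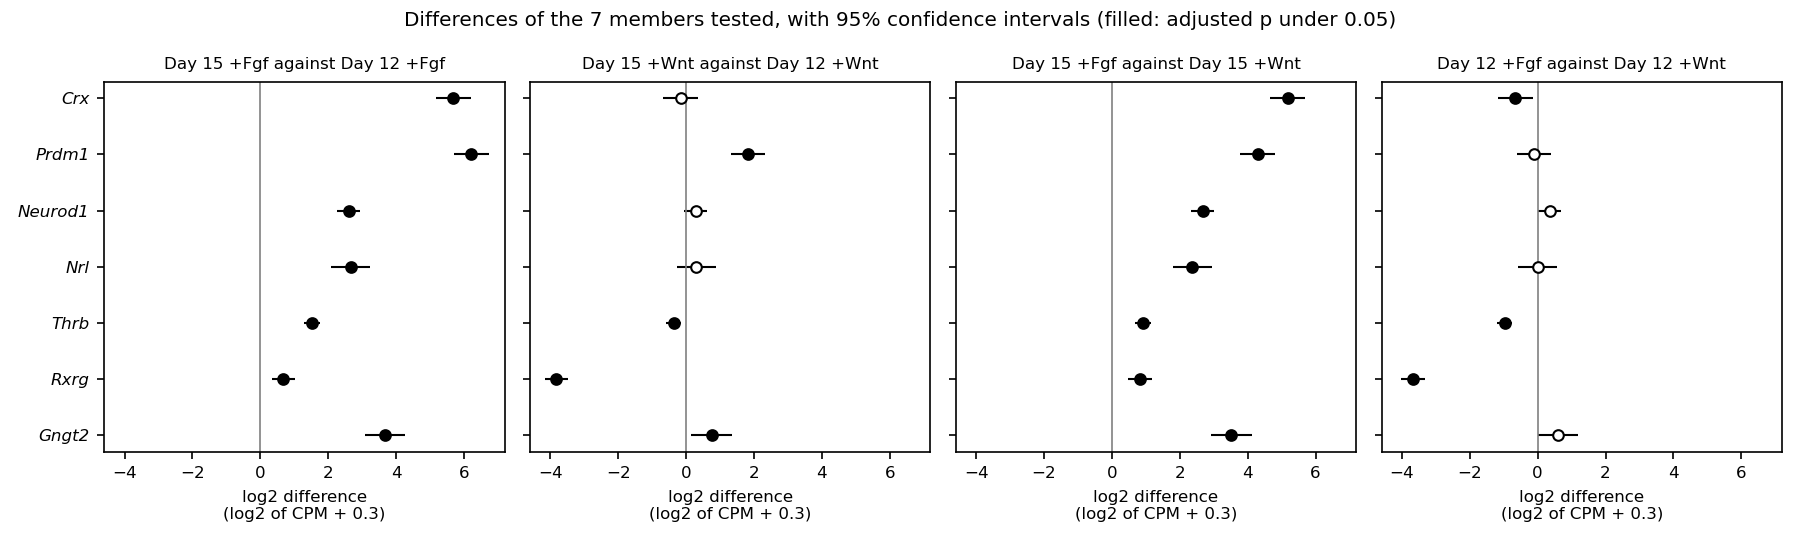
Log2 differences (of CPM + 0.3) of the 7 members tested in 4 comparisons, with 95% confidence intervals from the fit over 15 libraries. Filled points have an adjusted p under 0.05. All 7 lie to the right of 0 for Day 15 +Fgf against Day 12 +Fgf and against Day 15 +Wnt, and Rxrg lies far to the left for Day 15 +Wnt against Day 12 +Wnt (-3.82) and Day 12 +Fgf against Day 12 +Wnt (-3.67).

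The first 2 days of stimulation gave no common direction among the members. From Day 10 to Day 12 +Fgf, 1 of 7 rose (Neurod1) and 3 fell (Crx, Thrb and Rxrg), beside 27.9% of all genes tested that rose and 27.8% that fell. From Day 10 to Day 12 +Wnt, 2 rose (Neurod1 and Rxrg) and 1 fell (Crx), beside 30.6% and 29.6%. Between the Day 12 tissues, 3 members were lower in +Fgf (Rxrg by -3.67, Thrb by -0.97 and Crx by -0.67) and 0 higher, beside 25.2% lower and 26.3% higher over all genes. Neurod1 was 0.35 higher in +Fgf at an unadjusted p under 0.05 (95% confidence interval 0.01 to 0.70, adjusted p = 0.0789), and it passed in the edgeR count test (0.33, adjusted p = 0.0448) and with only the libraries compared (0.35, adjusted p = 0.00971). The Crx difference (SE 0.24, adjusted p = 0.0303) came with overlapping ranges, and it was -0.44 without Day 12 +Fgf replicate 1 (adjusted p = 0.167) and -1.03 without replicate 2 (adjusted p = 0.00024). It was also lost without Day 12 +Fgf replicate 3 or without Day 12 +Wnt replicate 2 or 3 (-0.53 to -0.60, adjusted p = 0.0902 to 0.117), and at -0.67 in the edgeR count test (adjusted p = 0.0808), with no filter (0.0515), with no trend (0.0517) and with only the libraries compared (0.0932). By count, 2 members rose (Prdm1 and Gngt2) and 2 fell (Thrb and Rxrg) from Day 12 to Day 15 +Wnt, beside 32.5% and 35.5% of all genes.

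Against the Day 10 starting tissue, 6 members were higher in Day 15 +Fgf tissue and 1, Rxrg, was lower, beside 36.2% and 36.4% of all genes tested. The log2 differences were 6.30 for Prdm1 (141-fold in mean CPM), 4.75 for Neurod1 (27.9-fold), 3.98 for Gngt2 (42.7-fold, counting interval 19.6 to 103) and 3.51 for Crx (11.6-fold). In Day 15 +Wnt tissue 2 were higher than at Day 10 (Neurod1 by 2.07 and Prdm1 by 2.01) and 2 lower (Crx by -1.67 and Rxrg by -3.13), beside 39.6% and 40.2%. The change from Day 12 to Day 15 was also larger in +Fgf than in +Wnt tissue for 7 of 7 (interaction term), beside 27.0% of all genes tested in that direction and 20.9% in the other. The comparisons share control libraries and are not independent of each other.

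Per kilobase of annotated exon, Neurod1 was the most abundant member in Day 15 +Fgf tissue at 45.4 ± 5.55 CPM per kb (SD, n = 3). Crx (32.5 ± 3.81), Prdm1 (9.48 ± 1.25), Thrb (5.55 ± 0.708), Gngt2 (3.58 ± 0.534), Rxrg (2.72 ± 0.363) and Nrl (0.288 ± 0.079) followed in CPM per kb. The ranges of neighbours in that order did not overlap, except those of Gngt2 (2.97 to 3.99) and Rxrg (2.31 to 2.99). Opn1sw was at 0.0737 ± 0.0139 CPM per kb. In Day 15 +Wnt tissue the order began with Neurod1 (6.98 ± 0.66), Thrb (2.92 ± 0.395), Rxrg (1.48 ± 0.234) and Crx (0.801 ± 0.0672 CPM per kb). In Day 12 +Wnt tissue Rxrg came first at 22.6 ± 3.46 CPM per kb, above Neurod1 at 5.71 ± 0.567. With the longest transcript as the length the order in Day 15 +Fgf tissue was the same.

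**Figure D3:**
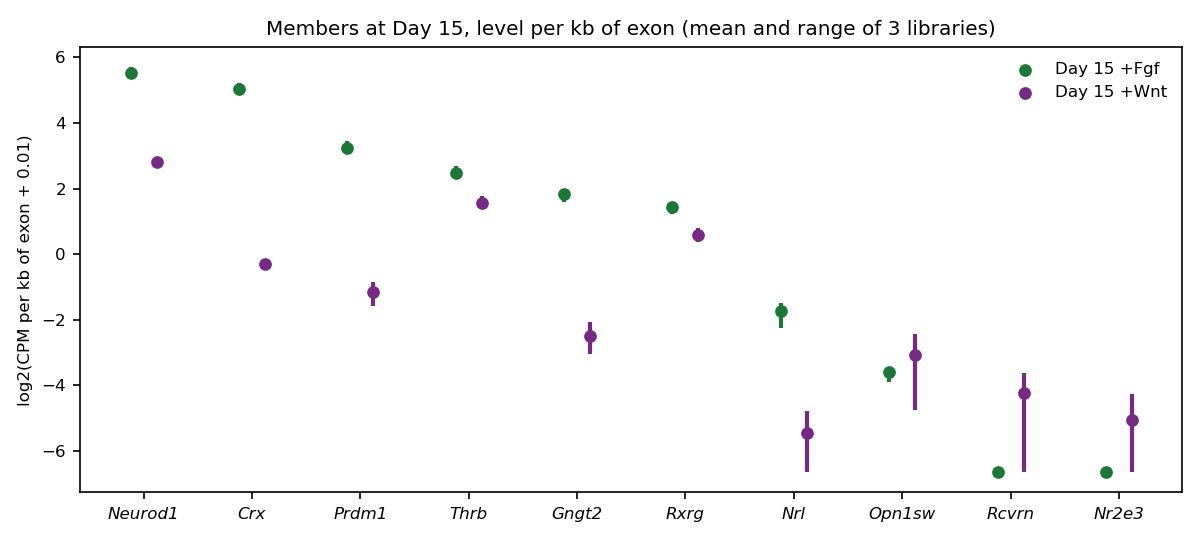
Level of the 10 members at Day 15 per kilobase of annotated exon, as log2(CPM per kb + 0.01), in the order of the +Fgf means. Points are means of 3 libraries and lines their range, green for +Fgf and purple for +Wnt. The groups lie farthest apart for Crx and overlap for Opn1sw, Rcvrn and Nr2e3, of which Rcvrn and Nr2e3 sit at 0 reads in +Fgf tissue.

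Across the 15 libraries, the log2 levels of Nrl, Prdm1 and Gngt2 were the most alike among the tested members (Pearson r = 0.95 to 0.97), and Rxrg was the least alike (r = -0.49 to 0.30 with the other 6). The points share 5 groups and 1 normalization, so these values describe the group pattern. Over 13823 other genes, those closest to Crx were 9130024F11Rik (r = 0.973), Tppp3 (0.963) and Dcaf11 (0.962). Klc1 (r = 0.983), Kif19a (0.982) and Nefm (0.981) were closest to Prdm1, and Tagln3 (0.985), Camk2n1 (0.98) and Cdk19 (0.98) to Neurod1. For Nrl they were Npvf, Prdm13 and Samsn1 (each r = 0.988), and for Gngt2 Slc37a1 (0.967), Ghsr (0.966) and Npvf (0.966). The genes closest to Thrb were Pdc (0.921), which encodes phosducin, a transducin-binding protein of photoreceptors, Ppef2 (0.905) and Map1lc3b (0.9). Those closest to Rxrg were Rdh10 (0.958), Fmr1 (0.946) and Mospd1 (0.941).

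Some genes of the mature photoreceptor had few or no reads and were not yet on, while others were already present. Of 52 later genes listed (rod and cone phototransduction, disc and outer segment genes, and the synapse), 51 were in the table and 27 were tested. The rod channel subunit Cnga1, the cone opsin Opn1mw and the cone phosphodiesterase subunit Pde6h, had 0 reads in all 15 libraries. Another 6 had at most 3 reads in every library, among them the disc rim gene Prph2, the axoneme gene Rp1, the matrix gene Impg1 and the synaptic genes Cabp4 and Cacna1f. In the 3 Day 15 +Fgf libraries alone, 16 of 51 stayed at or under 3 reads. These were 5 rod, 3 cone, 6 shared and 2 synaptic genes, beside 3, 4, 7 and 2 in the Day 15 +Wnt libraries. The count was thus not particular to +Fgf tissue. Of all 23244 entries, 15735 to 16109 had at least 1 read in a Day 15 +Fgf library, and the share of all entries at or under 3 reads was not computed.

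Of the 27 later genes tested, 7 were higher in Day 15 +Fgf than in Day 15 +Wnt tissue, 11 were lower and 9 did not pass the test, with a median difference of -0.15, beside 38.0% higher and 30.6% lower and a median of 0.05 over all genes. In the rod list (3 tested of 11), the arrestin gene Sag (2.08 ± 0.0332 against 0.842 ± 0.123 CPM, log2 difference 1.07, SE 0.34, adjusted p = 0.0111) and Reep6 (9.46 ± 1.34 against 4.82 ± 0.379 CPM, 0.92, SE 0.12, adjusted p = 3.21e-06) were higher in +Fgf. The phosphodiesterase subunit gene Pde6b was lower, at 0, 0.0687 and 0.212 CPM in +Fgf and 6.27, 4.77 and 5.47 CPM in +Wnt tissue (-3.91, SE 0.30, adjusted p = 5.11e-09). In the cone list (4 tested of 9), the channel subunit gene Cngb3 (2.20 ± 0.56 against 11.4 ± 1.53 CPM, -2.25, SE 0.27, adjusted p = 1.45e-06) and the exchanger gene Slc24a2 (1.89 ± 0.459 against 6.34 ± 0.884 CPM, -1.61, SE 0.31, adjusted p = 0.000232) were lower in +Fgf. The cone transducin subunits Gnat2 and Gnb3 did not pass the test (-0.64, 95% confidence interval -1.31 to 0.03, and -0.15, -0.77 to 0.46). All 4 tested genes of the cone list rose from Day 12 to Day 15 in both arms, beside 27.2% of all genes in +Fgf and 32.5% in +Wnt tissue, and as the low-value filter favours genes that are high in some group, that count is a description.

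Among the genes shared by rods and cones, 17 of 26 in the table were tested. Of these, 5 were higher and 8 lower in Day 15 +Fgf than in Day 15 +Wnt, beside 38.0% and 30.6% of all genes. The cadherin Cdhr1, which sits at the base of the outer segment, was at 44.3, 40 and 35.1 CPM in +Fgf and at 4.71, 6.49 and 5.40 CPM in +Wnt tissue (2.79, SE 0.26, adjusted p = 5.33e-08). Pdc was at 13.6, 11.7 and 14.6 CPM in +Fgf and at 3.10, 2.09 and 2.39 CPM in +Wnt tissue (2.27, SE 0.20, adjusted p = 3.3e-08). Both genes also showed the Day 12 crossing seen for Thrb, since they were lower in Day 12 +Fgf than in Day 12 +Wnt tissue (Cdhr1 by -2.92, adjusted p = 6.80e-08, and Pdc by -4.53, adjusted p = 1.92e-11). The retinal guanylate cyclase genes Gucy2f (-2.65, SE 0.32, adjusted p = 1.67e-06) and Gucy2e (-1.73, SE 0.25, adjusted p = 9.57e-06) were lower in Day 15 +Fgf. Gucy2f passed the filter through the Day 15 +Wnt libraries alone, so its difference is a description. Of the synaptic genes, 3 of 5 were tested, and Slc17a7 (0.11, 95% confidence interval -0.70 to 0.93), Cacna2d4 (0.07, -0.52 to 0.66) and Ctbp2 (0.07, -0.02 to 0.15) did not pass.

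**Figure D4:**
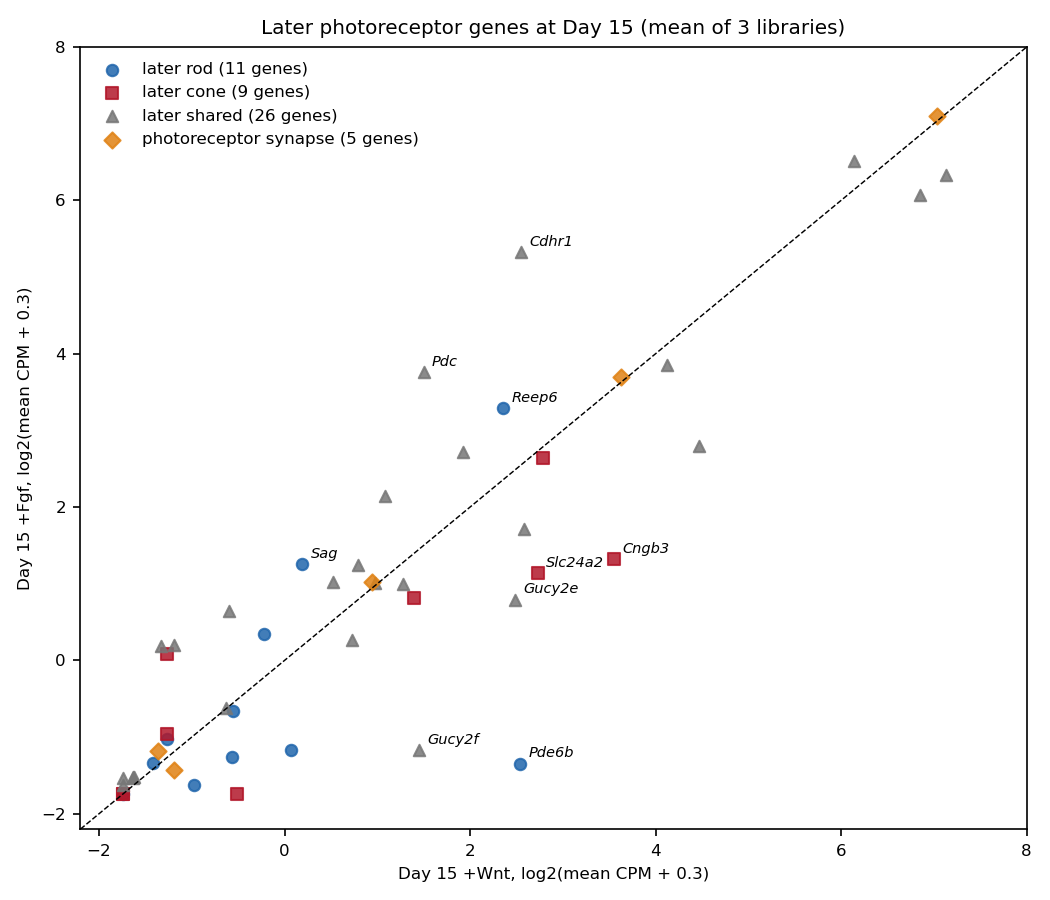
Mean level of 51 later photoreceptor genes in Day 15 +Wnt (horizontal) and Day 15 +Fgf tissue (vertical), each as log2(CPM + 0.3). Colours and shapes mark the 4 lists, the dashed line marks equal levels, and labelled genes have the largest differences past the threshold in their list. Cdhr1 and Pdc lie above the line, and Pde6b, Gucy2f and Cngb3 below it.

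Regulators that act before or beside the members moved with them in part. Of 32 regulators of photoreceptor and early retinal fate, 30 were tested, and 21 were higher and 5 lower in Day 15 +Fgf than in Day 15 +Wnt tissue (median 2.08), beside 38.0% higher and 30.6% lower over all genes tested (median 0.05). Among the 4 largest differences were those of the ganglion cell competence factor Atoh7 (102 ± 16.2 against 0.0674 ± 0.0703 CPM, 8.13, SE 0.31, adjusted p = 1.05e-12), the amacrine and horizontal cell factor Foxn4 (109 ± 9.8 against 0.0923 ± 0.042 CPM, 8.13, SE 0.14, adjusted p = 8.35e-17) and Rax (311 ± 28.6 against 5.41 ± 0.367 CPM, 5.77, SE 0.08, adjusted p = 9.28e-18). Otx2, which lies upstream of Crx, had the opposite sign. It was at 108.6, 106.8 and 111.4 CPM in Day 15 +Fgf and at 241.7, 213.4 and 224.3 CPM in Day 15 +Wnt tissue (-1.05, SE 0.09, adjusted p = 2.24e-08), and it rose by only 0.30 from Day 12 to Day 15 +Fgf (SE 0.09, adjusted p = 0.0103). Otx2 is also a gene of the pigment epithelium. Samd7, a photoreceptor chromatin factor, had at most 2 reads in any library.

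A list of 11 genes that work with Thrb and Rxrg, all tested, comprised related receptors, deiodinases, a hormone transporter, a hormone-binding protein and a corepressor. Of these, 6 were higher and 5 lower in Day 15 +Fgf than in Day 15 +Wnt tissue (median 0.27), beside the same 38.0% and 30.6% of all genes (median 0.05). Dio3, the deiodinase that inactivates thyroid hormone, was at 21.6 ± 1.86 against 0.34 ± 0.038 CPM (5.09, SE 0.17, adjusted p = 1.70e-13), whereas Dio2, which activates it, was at 3.25 ± 1.19 against 16.5 ± 1.7 CPM (-2.30, SE 0.27, adjusted p = 1.29e-06). The retinoic acid receptor gene Rarb (15.6 ± 3.32 against 2.85 ± 0.383 CPM, 2.33, SE 0.23, adjusted p = 1.43e-07) and Crym, which encodes a thyroid hormone-binding protein (11.5 ± 2.7 against 2.26 ± 0.886 CPM, 2.25, SE 0.38, adjusted p = 5.67e-05), were also higher in +Fgf.

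Markers of other cell types differed between the same groups, some with the members and some the other way, and their part in the result was not tested. All 10 retinal progenitor markers (10 of 10) were higher in Day 15 +Fgf than in Day 15 +Wnt tissue, beside 38.0% of all genes tested. Their summed level was 4620 to 5050 against 717 to 806 CPM. From Day 12 to Day 15 +Fgf, 4 of them rose and 3 fell, beside 27.2% and 29.9% of all genes. Their sum in Day 12 +Fgf tissue was already 4810 to 5030 CPM. Ganglion cell markers (9 tested of 10) were higher for 7 and lower for 1 at Day 15, beside 38.0% and 30.6% of all genes. They summed to 841 to 1020 against 337 to 421 CPM, beside 145 to 157 CPM in Day 12 +Fgf tissue. Horizontal and amacrine cell markers (10 tested) were higher for 2 and lower for 5, beside the same shares of all genes. They summed to 110 to 120 against 183 to 224 CPM, with Calb2 at 12.6 against 78.3 CPM and Lhx1 at 1.58 against 25.5 CPM. The 2 higher in +Fgf were Ptf1a (6.72 against 0.0704 CPM) and Prox1 (24.8 against 5.85 CPM). From Day 12 to Day 15 +Fgf 8 of these 10 rose, from a sum of 47.7 to 65.6 CPM, as did 8 of the 9 ganglion cell markers tested, beside 27.2% of all genes. Pigment epithelium markers (9 tested of 12) were lower for all 9 in Day 15 +Fgf than in Day 15 +Wnt tissue, beside 30.6% of all genes. They summed to 242 to 424 against 6090 to 8060 CPM, and Rpe65 had at most 1 read in any library.

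Markers of bipolar cells and pinealocytes, which also use Crx, went in both directions, and their part in the result was likewise not tested. Of the 8 bipolar cell markers, Cabp5 had at most 1 read and Grm6 at most 3 reads in any library. The bipolar sum of 66.4 to 87.2 CPM in Day 15 +Fgf and 1790 to 2250 CPM in Day 15 +Wnt tissue followed Trpm1 (-4.82, SE 0.11, adjusted p = 4.56e-15), which pigment cells also use. Of the 8, 4 were tested, and those other than Trpm1 were higher in Day 15 +Fgf than in Day 15 +Wnt tissue. Lhx3 was at 1.56 ± 0.195 CPM against 0 reads (2.63, SE 0.25, adjusted p = 1.04e-07). Bhlhe23 was at 3.33 ± 0.618 against 0.64 ± 0.133 CPM (1.94, SE 0.28, adjusted p = 8.96e-06). Gpr179 was at 1.39 ± 0.388 against 0.167 ± 0.12 CPM (1.86, SE 0.36, adjusted p = 0.000249). Lhx3 and Bhlhe23 passed the filter through Day 15 +Fgf alone, so their higher level there is a description. From Day 12 to Day 15 +Fgf, Lhx3 (2.53) and Bhlhe23 (2.71) rose, beside 27.2% of all genes tested that rose and 29.9% that fell. Over the same days Trpm1 fell (-1.92, adjusted p = 8.84e-10) and Gpr179 did not pass the test (0.73, adjusted p = 0.0964). Of the 4 pinealocyte markers, Aanat, Asmt and Tph1 had at most 2, 1 and 5 reads in any library, and Slc18a1 was at 0.28 ± 0.177 CPM in Day 15 +Fgf and at 1.23 ± 0.107 CPM in Day 15 +Wnt tissue. The list summed to 0.147 to 0.481 CPM in Day 15 +Fgf and 1.4 to 1.57 CPM in Day 15 +Wnt tissue.

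**Figure D5:**
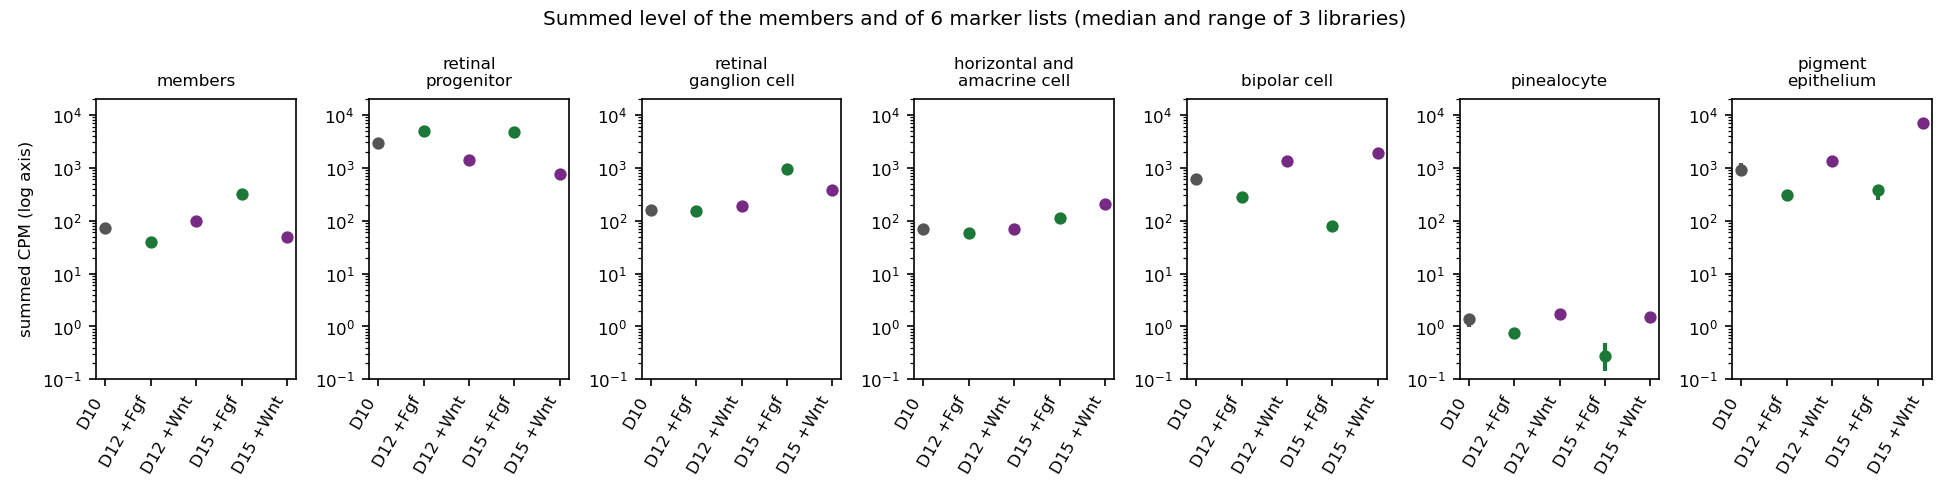
Summed CPM, on a log axis, of the 10 members and of 6 marker lists in the 5 groups, with the median (point) and range (line) of 3 libraries. The members summed to 309 to 382 CPM in Day 15 +Fgf and 48.8 to 51.3 CPM in Day 15 +Wnt tissue, ganglion cell markers were also highest in Day 15 +Fgf, and pigment epithelium markers were highest in Day 15 +Wnt tissue.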

How the data were processed

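The authors mapped paired-end reads with TopHat2 2.0.8b to mm10, counted fragments per gene with Cuffdiff of Cufflinks 2.1.1 on the UCSC transcriptome, and deposited normalized signal values scaled with edgeR 3.2.4, which they call CPM. These sum to 936418 to 1075448 per library. Every value was a whole multiple of a library's value of 1 read (100%, tolerance 0.05), so reads were recovered and used for depth, floors and an edgeR count test. Groups came from the sample labels. One limma 3.58.1 fit with an intensity trend (R 4.3.3) on log2(CPM + 0.3) covered 15 libraries, 8 pairwise comparisons and the difference between treatments in the Day 12 to Day 15 change. It was tested on simulated data first. The replicates are described as biological, from 1 ES line. Counting intervals cover counting error only (95%). Positions and exon lengths came from GENCODE M21 (GRCm38, which is mm10) and promoter windows from RefSeq GRCm38.p6. One listed gene, Mpp4, was not in the table under that symbol.

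The members and gene lists were chosen with earlier results of these data known. By rule, the text names all members, later, regulator and receptor genes with at most 3 reads in every library, the 4 largest Day 15 differences past the threshold in each of those lists, and the 3 genes most alike each tested member, and results on a few listed genes are not reported here. Other genes named (Otx2, Slc17a7, Cacna2d4, Ctbp2, Gnat2, Gnb3, Trpm1, Slc18a1, Lhx3, Bhlhe23, Gpr179, Calb2, Lhx1, Ptf1a, Prox1 and the defining markers) were chosen after their values were seen. Alternatives covered pseudocount, filter, scaling, trend, RNA integrity, replicate block, libraries fitted, test and each library left out.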

Additional observations from a re-analysis of the deposited data

Results flagged for a closer look

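The change from Day 12 to Day 15 differed between the +Fgf and +Wnt arms for all 7 members tested, by the interaction term of the limma fit, beside 27.0% of all genes tested with a difference in that direction. The change in +Fgf minus that in +Wnt was 5.85 for Crx (SE 0.34, adjusted p = 2.06e-09), 4.40 for Prdm1 (SE 0.34, adjusted p = 3.46e-08) and 2.33 for Neurod1 (SE 0.23, adjusted p = 4.88e-07) on the log2 scale. It was 1.89 for Thrb (SE 0.15, adjusted p = 4.46e-08) and 4.50 for Rxrg (SE 0.23, adjusted p = 5.64e-10), where most of the Rxrg value was the 3.82 by which it fell in +Wnt tissue, since -3.82 was its change there and 0.68 its change in +Fgf. It was 2.37 for Nrl (SE 0.39, adjusted p = 9.79e-05) and 2.92 for Gngt2 (SE 0.40, adjusted p = 1.74e-05). The edgeR count test kept 5 of the 7 calls and lost Nrl (4.36, adjusted p = 1) and Gngt2 (2.51, adjusted p = 0.115), the members with the fewest reads.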

How the results depend on the processing

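The number of members called stayed within 1.5 times the reported number in every comparison under every alternative, with 5 to 7 for Day 15 +Fgf against Day 12 +Fgf and against Day 15 +Wnt and 5 to 8 for the interaction. The 5 came from a filter of 10 CPM, which leaves Nrl and Gngt2 out, and for the interaction also from the edgeR count test. Of 1095 values of single members under an alternative, 1057 kept their direction and side of the threshold, 19 lost the call, 10 gained one and 9 changed sign. The sign changes were all in values without a call, which were Prdm1 in Day 12 +Fgf against Day 10 (-0.12 to 0.19 with a library left out, -0.03 under quantile normalization and with RNA integrity) and against Day 12 +Wnt (-0.31 to 0.04 with a library left out, 0.01 under quantile normalization), Prdm1 in Day 12 +Wnt against Day 10 (-0.04 under quantile normalization) and, under quantile normalization, Nrl (-0.10) and Gngt2 (-0.23) for Day 15 +Wnt against Day 10. Under quantile normalization the Rxrg rise from Day 12 to Day 15 +Fgf was 0.38 (adjusted p = 0.0655). Calls gained and not given above were Gngt2 between the Day 12 tissues (0.84, adjusted p = 0.032) and Thrb in Day 15 +Wnt against Day 10 (-0.32, adjusted p = 0.0111), both under quantile normalization, Thrb in the latter without Day 15 +Wnt replicate 1 (-0.25, adjusted p = 0.0421), and Thrb in Day 12 +Wnt against Day 10 with RNA integrity (0.35, adjusted p = 0.0396). The cause was not tested. The median difference over all genes moved most under quantile normalization, from 0 to -0.11 for Day 15 +Wnt against Day 10, where Crx (-2.47) and Rxrg (-3.72) lay below that shift under the same setting.

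No sign was seen that replicate numbers pair the libraries. Deviations of same-numbered libraries correlated at -0.254 to 0.236 (median -0.010) and those of other numbers at -0.327 to 0.293. With 3 libraries per group, this check cannot settle whether libraries of the same number were grown together. With the number as a replicate block, 7 members were called for Day 15 +Fgf against Day 15 +Wnt and 7 for Day 15 +Fgf against Day 12 +Fgf, and the block moved 1 call, Gngt2 between the Day 12 tissues (0.60, adjusted p = 0.0417). Depth limits Rcvrn, Nr2e3, Opn1sw and the later genes at a few reads, for which a change under 3 reads per library could not be seen.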
